A study of Nicotiana tabacum with 9 samples.

Results

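The peaks that fell on the plastid and mitochondrial genomes of tobacco were examined in a DNA affinity purification sequencing (DAP-seq) experiment. They were all listed peaks, at any score, on the sequences NC_001879.2 (plastid) and NC_006581.1 (mitochondrion). There were 250 of them among 50154 peaks. AmMIXTA had 8, all on the mitochondrial sequence and none on the plastid sequence, among 29197 peaks. The sources used here do not say whether plastid reads were mapped and filtered alike for both proteins, so the absence of plastid peaks from the AmMIXTA list cannot be read as an absence of binding. NtZFP8 had 134 on the plastid and 108 on the mitochondrial sequence, among 20957 peaks.

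In DAP-seq a tagged protein made outside the cell is fixed to beads and offered fragments of genomic DNA, and the fragments it retains are sequenced. The 9 samples were 3 of HALO-tagged AmMIXTA, an R2R3-MYB factor of snapdragon, 3 of HALO-tagged NtZFP8, a C2H2 zinc finger protein of tobacco, and 3 of HALO-tagged nuclear-targeted GFP as the negative control. All 3 were expressed in a wheat germ system and met naked DNA from leaf primordia of wild-type Nicotiana tabacum Petit Havana SR1, so the assay carries no nucleosomes, nucleoids or membranes of the living cell. The 3 samples of a protein came from separate expressions, each offered DNA of a separate plant. The deposited data are 1 list of peaks per protein, called against the same GFP samples, with no value per replicate. No spread between replicates can therefore be given, the read depth is unknown, and the intervals below cover counting error over peaks only. The peak shape score, which the authors gave each peak, has no unit and ranks peaks within a list. Both lists hold only peaks with a deposited p-value of 0.05 or less, after rounding for NtZFP8.

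A leaf cell holds many copies of its plastid and mitochondrial genomes, and DNA purified from whole tissue carries them along with nuclear DNA. The plastid genome is compact. It encodes parts of the photosynthetic complexes, an RNA polymerase, ribosomal proteins, tRNAs and rRNAs, and carries a large stretch in a pair of copies of opposite orientation, the inverted repeat. The mitochondrial genome of plants is larger and mostly lies between genes. It encodes parts of the respiratory chain and many open reading frames with no known function, and also holds repeats. Both factors are encoded in, and studied for their action in, the nucleus, where MIXTA-type factors are known for their part in shaping epidermal cells.

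AmMIXTA had 8 mitochondrial peaks with scores from 1.95 to 12.77, and 7 of them stood above 2, the criterion in the study's design text, which 70.3% of all listed AmMIXTA peaks passed. Distances to genes are given from peak centres. The highest peak lay at 182017 to 182383, with its centre 121 bp from nad4 (NitaMp074) and its end within that gene, which encodes a subunit of respiratory complex I. Its score was 12.77 (the authors' p = 1.19e-37), and it was 367 bp wide. It was the highest and the widest of the 8. The second highest scored 4.17 and the other 7 were 123 to 195 bp wide. The NtZFP8 peak at that place (182170 to 182387) scored 3.93, rank 12 of its 108 mitochondrial peaks, and its centre lay 22 bp away. At the open reading frames orf101d and orf190 it was NtZFP8 that had its highest mitochondrial peak, 10.08 (255256 to 255552). There AmMIXTA scored 2.79 (255316 to 255460), rank 4 of its 8, with centres 26 bp apart. Scores rank peaks within a list, so their sizes are not compared between the proteins. Both centres lie between the genes, the AmMIXTA centre 162 bp from orf101d and 182 bp from orf190, and the NtZFP8 region reaches into orf190.

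Values are also given for the places where another AmMIXTA peak had an NtZFP8 peak over the same bases. Beside orf133 the scores were 4.17 for AmMIXTA (17571 to 17751) and 5.61 for NtZFP8 (17517 to 17819), with centres 7 bp apart. Beside orf125a, near the start of the sequence, they were 2.57 for AmMIXTA (621 to 806) and 4.93 for NtZFP8 (639 to 855), 5 bp apart. In the space between orf161 and orf132 (NitaMp024), over 2 kb from either, they were 1.95 for AmMIXTA (53415 to 53609) and 4.80 for NtZFP8 (53442 to 53729), 80 bp apart. No NtZFP8 peak lay over the AmMIXTA peaks at 149555 to 149682, between orf237 and orf101a (score 3.24), at 177473 to 177595, within orf106b (2.32), and at 274510 to 274640, 473 bp from orf131b (2.63). The nearest NtZFP8 centres lay 2537, 402 and 4908 bp from them. Since the scores of both proteins rest on the same GFP samples, no test was made between them, and nothing is drawn from how many places they share.

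**Figure D1:**
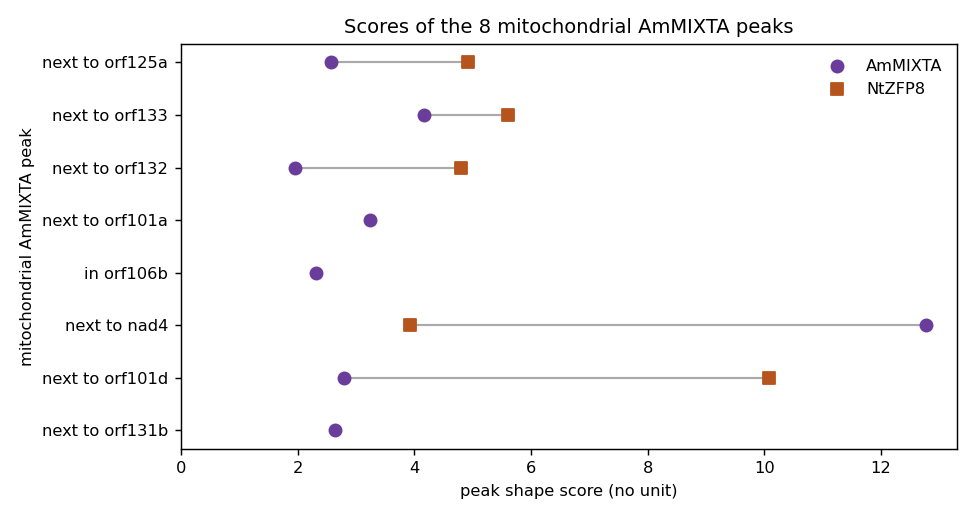
Peak shape score (horizontal axis, no unit) of each of the 8 mitochondrial AmMIXTA peaks (circles, 1 row per peak, named by the gene at or nearest to its centre) and of the NtZFP8 peak over the same bases where there was one (squares). The highest AmMIXTA peak lies next to nad4 (12.77), where NtZFP8 has 3.93. The highest mitochondrial NtZFP8 peak lies next to orf101d (10.08), where AmMIXTA has 2.79. Scores rank peaks within a list only.

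Among the 134 plastid peaks of NtZFP8, 117 (87.3%, 95% Wilson interval 80.6 to 91.9) scored above 2, and among its 108 mitochondrial peaks 79 did (73.1%, 64.1 to 80.6), where 72.6% of all listed NtZFP8 peaks passed. The plastid scores had a median of 3.26 (interquartile range 2.32 to 4.61) and reached 8.06. The mitochondrial scores had a median of 2.36 (1.98 to 3.01) and reached 10.08. Nuclear NtZFP8 peaks had a median of 2.52 (1.96 to 3.83) and reached 25.5, so the plastid peaks were higher at the median while none of them came near the strongest nuclear peaks. Above 10 stood 0 of the 134 plastid peaks, 1 of the 108 mitochondrial peaks and 877 of 20715 nuclear peaks (4.23%). Above 5 stood 23 plastid peaks (17.2%), 4 mitochondrial peaks (3.70%) and 15.8% of the nuclear peaks. Plastid peaks made up 0.639% (0.540 to 0.757) of the NtZFP8 list, 0.769% of its peaks above 2 and 0.971% of those above 3. Above 5 their share was 0.696%. Mitochondrial peaks made up 0.515% (0.427 to 0.622) of the list, 0.519% of its peaks above 2 and 0.340% of those above 3. Above 5 their share was 0.121%. For AmMIXTA the median score was 2.71 for the 8 mitochondrial peaks and 2.44 for the nuclear peaks, and the mitochondrial peaks made up 0.0274% (0.0139 to 0.0541) of the list.

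In both lists the median organelle peak was narrower than the median nuclear peak. The 8 AmMIXTA peaks had a median width of 163 bp (123 to 367), and all 8 were narrower than the median of 387 bp of the nuclear AmMIXTA peaks. For NtZFP8 the median was 232.5 bp (107 to 416) on the plastid and 218.5 bp (138 to 392) on the mitochondrial sequence, against 287 bp for nuclear peaks. Of these, 110 plastid peaks (82.1%) and 92 mitochondrial peaks (85.2%) lay under the nuclear median. The narrowest plastid peak was also its lowest (128748 to 128854, within ycf1, 107 bp, score 1.65). The widest plastid peaks measured 416 bp and lay within ndhF (114094 to 114509, 2.25) and ndhB (97338 to 97753, 3.78). On the mitochondrial sequence the extremes were 138 bp (180979 to 181116, 1.69) and 392 bp (403865 to 404256, 3.14), both between genes. These widths have no test, since peaks of 1 list share their libraries.

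**Figure D2:**
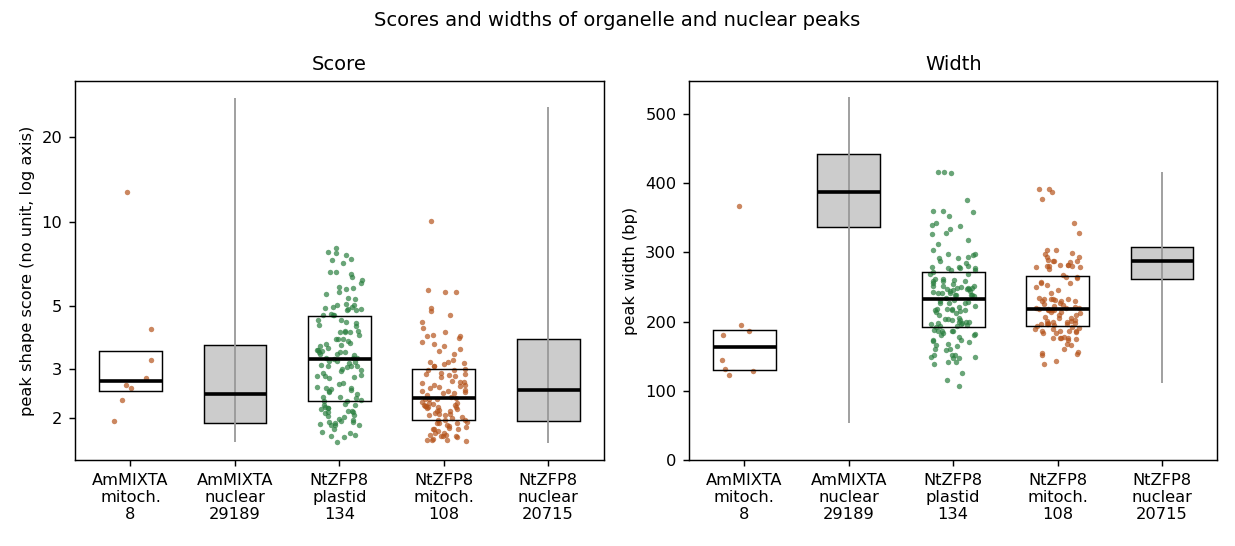
Peak shape score (left, no unit, log axis) and peak width in bp (right) by list and sequence, with the number of peaks under each name. Points are single organelle peaks, open boxes their quartiles with the median as a thick line, and grey boxes and vertical lines the quartiles and full range of nuclear peaks. Organelle medians of width (163, 232.5 and 218.5 bp) lie under the nuclear medians (387 and 287 bp), while plastid scores have the highest median (3.26).

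The NtZFP8 peaks lay along the whole plastid sequence. Taking the furthest gene end (155887) as its length, there were 8.60 peaks per 10 kb, and the peaks took up 20.2% of the bases. Each of 15 windows of 10 kb held between 5 and 12 peak centres. Neighbouring centres lay a median of 867 bp apart (interquartile range 627 to 1326), and 77 of the 133 distances (57.9%) were under 1000 bp. The closest pair lay 315 bp apart (centres 141653 and 141968, between NitaCp092 and rps7). No peaks overlapped, and the shortest gap between the end of one and the start of the next was 79 bp. On the mitochondrial sequence, of at least 429889 bp, the density was 2.51 peaks per 10 kb and the peaks took up 5.79% of the bases. There the centres lay a median of 2385 bp apart (1013.5 to 4880), from 367 bp (18556 and 18923, both between orf133 and trnI) to 23616 bp (128547 and 152163), and 7 of 42 windows had no peak. That longest stretch holds cox1, rps10 and atp9, and the AmMIXTA peak centred at 149626 lies in it. The 8 AmMIXTA centres were a median of 27917 bp apart (4706 to 96125), and none lay beyond 274578. By number of peaks the plastid and mitochondrial sequences ranked first and second of 13913 sequences in the NtZFP8 list, where the highest number on a nuclear sequence was 36. In the AmMIXTA list the mitochondrial sequence ranked 109th of 21197, and a nuclear sequence had 27. Lengths of the nuclear sequences are not in the files, so these are counts and not densities.

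**Figure D3:**
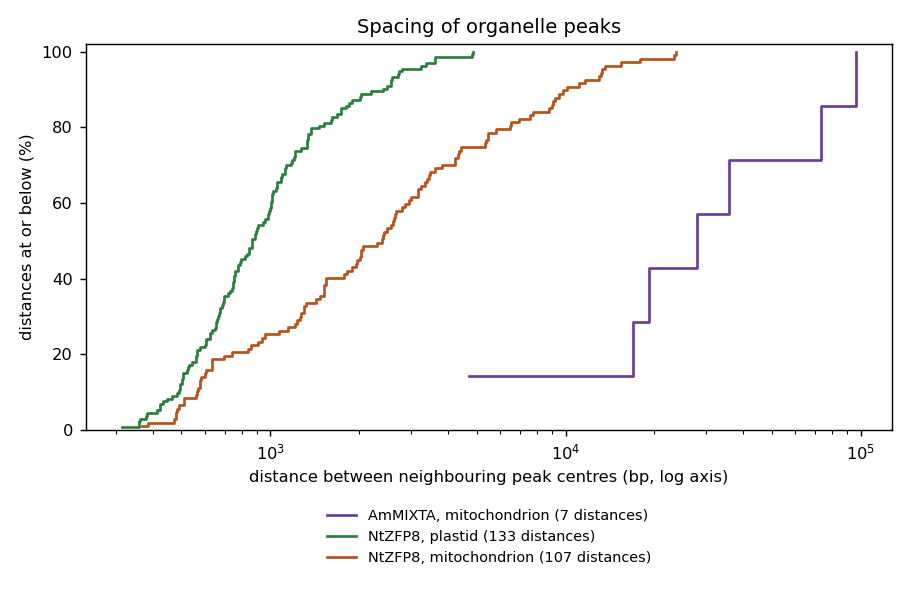
Cumulative share (vertical axis, percent) of the distances between neighbouring peak centres (horizontal axis, bp, log scale) for the 8 AmMIXTA mitochondrial, 134 NtZFP8 plastid and 108 NtZFP8 mitochondrial peaks. The plastid curve lies furthest left, with a median of 867 bp, then the NtZFP8 mitochondrial curve (2385 bp) and the AmMIXTA curve (27917 bp).

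Genes were placed with RefSeq's gene table of assembly ASM71507v2, on the same organelle sequences. Spans include introns, and strands and exons are not in it. Of the 134 plastid centres, 111 (82.8%, 95% Wilson interval 75.6 to 88.3) lay within a gene span, and these spans take up 71.5% of the sequence. Among the 23 peaks above 5, 22 lay within a gene, and the one between genes stood at 6880 to 7130 between rps16 and trnQ (5.04). In all, 75 of the 144 listed genes held a centre.

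The genes of the photosystems, the cytochrome b6f complex, the ATP synthase and Rubisco held at most 2 centres each, of varied height. Of the 5 photosystem I genes, 2 held a centre. They were psaC, for the iron-sulphur subunit (119140 to 119393, score 6.22), and psaA, for a reaction centre protein (3.06 and 2.03). Photosystem II had 5 genes of 15 with a centre. The highest was psbZ, for a small subunit of that complex (37528 to 37768, 7.59), followed by psbB, for an antenna protein (5.81), psbC, for another (4.29 and 3.39), psbA, for the D1 reaction centre protein (2.99), and psbH (2.98). In the cytochrome b6f complex, which passes electrons between the photosystems, petD had 5.87 and 2.45, petA 2.48 and petB 2.38, while the other 3 genes had none. All 6 ATP synthase genes held 1 centre each. The highest were atpH, for the subunit that forms the membrane ring (13912 to 14253, 6.53), and atpI (15803 to 16036, 5.63), and the others scored 3.40 (atpE), 2.56 (atpA), 2.37 (atpB) and 2.17 (atpF). The gene for the large subunit of Rubisco, rbcL, which fixes carbon dioxide, had 1 peak of 4.27.

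Genes of the NADH dehydrogenase-like complex, which carries cyclic electron flow, held a centre in 10 of 12 cases, with ndhB counted in both of its copies. The second highest plastid peak lay within ndhA (122082 to 122361, 7.82), which held 3 centres. A further 3 lay in ndhF (up to 4.35), and ndhK and ndhC had none. All 4 genes of the plastid-encoded RNA polymerase held a centre. The highest plastid peak of all stood within rpoA, for the alpha subunit (80774 to 81041, 8.06, the authors' p = 3.77e-16), with a second, 116 bp wide, in the same gene (2.67). The polymerase genes rpoC2 (17901 to 18141, 6.03), rpoC1 (4.48) and rpoB (3.20 and 2.24) followed. Although 4 of 4 genes were hit, these long genes had only 5.36 centres per 10 kb, fewer than the sequence as a whole.

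Ribosomal protein genes took 18 centres in 15 of 25 listed genes, at 14.1 per 10 kb. The highest was in rps16 (6041 to 6268, 6.64), which held 3, and rps2 (4.88), rpl14 (4.85) and rps14 (4.84) came next. The tRNA genes took 18 centres as well, 13.4% (8.67 to 20.2) of all, on 6.35% of the sequence. These lay in 15 of 37 genes. Of the 8 tRNA genes longer than 500 bp, 6 held 9 of the centres, and of the 29 shorter ones (71 to 92 bp) 9 held 1 each. A trnI gene (NitaCt138, 104568 to 104827) had 7.72, a trnS gene (NitaCt127, 47074 to 47300) 7.38, a trnL gene (NitaCt142, 116060 to 116305) 7.31 and trnP (68992 to 69196) 5.76. Of the 23 plastid peaks above 5, 7 were centred on tRNA genes. These 7 include a trnI peak in each copy of the inverted repeat (7.72 and 5.51). By contrast the 8 rRNA genes, 5.81% of the sequence, held 1 centre (0.746%, 0.132 to 4.11), with a score of 2.17 in NitaCr105. A further peak (109494 to 109644, 3.09) reached into NitaCr108, with its centre 30 bp away. These genes lie in the inverted repeat, and how reads matching both copies were placed is not given. The longest distance between plastid centres, 4867 bp (104704 to 109571), spans the genes trnA, NitaCr106 and NitaCr107 of the first repeat copy. The next longest, 4810 bp (132605 to 137415), runs from trnR to trnI in the second copy.

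The very long genes ycf1 and ycf2, both needed for the cell though their roles have long been debated, held 20 centres. Of these, 7 lay in ycf1 (up to 7.11 at 129387 to 129663, and 6.62 at 126403 to 126816), 6 in the first copy of ycf2 (up to 6.35) and 7 in the second (up to 4.89). At 10.3 per 10 kb they were not far from the sequence as a whole (8.60). Among other genes, clpP, for a protease subunit, held 3 centres (up to 4.41), as did ycf3, an assembly factor of photosystem I (up to 5.29), and trnK (up to 4.47), whose span includes matK. Between genes there were 23 centres, 17.2% (11.7 to 24.4) of all on 28.5% of the sequence, with a median score of 2.83.

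Most mitochondrial peaks were centred outside genes. Of 108 NtZFP8 centres, 89 (82.4%, 74.2 to 88.4) lay between genes, which make up 75.8% of the sequence, and 3 of the 4 peaks above 5 did. Besides the peak of 10.08 at orf101d and orf190, these were at 18367 to 18655 (5.70), with its centre 64 bp from orf133 and its start within that gene, and at 17517 to 17819 on the other side of orf133 (5.61). The fourth lay within orf103b (207160 to 207416, 5.62). Over all classes, 20 of the 183 listed genes held a centre. Genes of the respiratory chain held few, and they take up little of the sequence. Of 10 complex I genes, nad5 had 1 centre (193927 to 194207, 4.67) and nad4 had 2 (1.88 and 1.84). These were 2.78% (0.949 to 7.85) of all centres on 4.39% of the sequence. The 7 genes of complexes II to IV (1.56% of the sequence), the 3 atp genes (0.687%) and the 4 genes of cytochrome c maturation (1.25%) held none. Open reading frames held 13 centres, 12.04% of all on 11.9% of the sequence, led by orf103b and orf25 (3.63). Of 23 tRNA genes, trnC (2.13) and trnD (NitaMt007, 2.09) held 1 each, the ribosomal protein gene rps4 had 1 of 1.67, and both copies of rrn26 had 1 (1.77 and 1.84). The lowest mitochondrial peaks, at 91981 to 92174 (1.66) and at 291989 to 292140 and 327821 to 328029 (1.67 each, as rps4), were under the criterion.

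**Figure D4:**
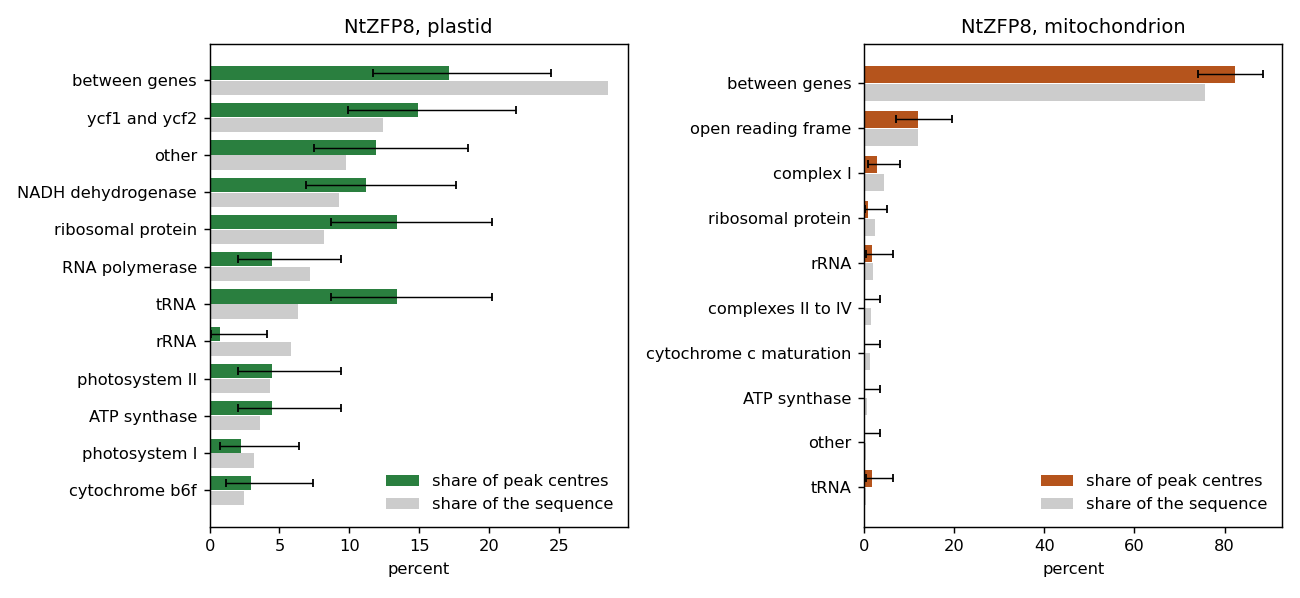
Share of NtZFP8 peak centres (coloured bars, with 95% Wilson intervals) and share of the sequence (grey bars) by class of gene, in percent, for the plastid (left) and the mitochondrion (right). On the plastid, tRNA genes hold 13.4% of centres on 6.35% of the sequence and rRNA genes 0.746% on 5.81%. On the mitochondrion 82.4% of centres (74.2 to 88.4) lie between genes, on 75.8% of the sequence. A centre within overlapping genes of several classes counts in each.

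The inverted repeat puts the same genes on the plastid sequence in mirrored order, so each place in one copy has a counterpart in the other. Mirrored about 1 point lay 20 pairs of genes of equal length, in the stretches 86743 to 110826 and 131804 to 155887. The copies below are these stretches, bounded by the outermost gene pairs. The sources used here do not say how reads matching both copies were placed. Each copy held 18 NtZFP8 peaks. Of these, 12 had a counterpart whose centre lay within 100 bp of the mirrored place, at a median offset of 17.5 bp (5 to 59).

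The scores of the copies were not alike. At ycf2 the peak at 89941 to 90316 scored 6.35, while its counterpart at 152314 to 152651, 5 bp from the mirrored place, scored 2.65. This was the largest difference, 3.70. The trnI pair scored 7.72 in the first copy and 5.51 in the second (137825 to 138099), and it was the highest peak of both copies. Other pairs went the other way. A second ycf2 pair scored 3.37 in the first copy and 4.89 in the second, ndhB 3.78 and 4.97, rps7 2.83 and 3.83, and trnR 3.45 and 4.66. Over the 12 pairs the first copy was higher in 7 and the second in 5, and the median difference in size was 1.2. Both members were above 2 in 9 pairs and 1 member in 2, as at ycf2 with 3.27 in the first copy (90596 to 90853) and 1.91 in the second (151819 to 152036).

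The peaks without a counterpart numbered 6 in each copy. In the first copy they reached 3.44 (92291 to 92539, ycf2) and included those in rpl2 (2.04) and NitaCr105 (2.17). In the second they reached 2.85 (144281 to 144573, ndhB) and had a median of 1.92. Counting all peaks, 17 of 18 in the first copy and 11 of 18 in the second were above 2, with medians of 3.22 and 2.36. Of all plastid NtZFP8 peaks 87.3% were above 2, and of the whole NtZFP8 list 72.6%. The stretch between these copies (110827 to 131803), which holds the small single-copy part, was the densest with 11.9 peaks per 10 kb (25 peaks, median score 3.55). The large single-copy part had 8.42 (73 peaks, 3.40) and each copy 7.47. Repeat sequence beyond the outermost gene pairs would be counted outside the copies. Just outside the gene-defined copies 2 more pairs stood mirrored, within NitaCp079 and the end of ycf1. They scored 3.71 (111133 to 111417) and 4.98 (131263 to 131509), and 5.09 (111795 to 111977) and 4.06 (130617 to 130809). NitaCp079 and ycf1 differ in length (1053 and 5709 bp), so they could not count as a gene pair. Whether the repeat reaches these 2 pairs of peaks was not tested. A further pair within 100 bp stood deeper in the small single-copy part, away from the repeat, with 2.05 (114869 to 115066) and 3.05 (127562 to 127805), 16 bp from the mirrored place. By this last pair, pairing at this tolerance was also found away from the repeat.

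**Figure D5:**
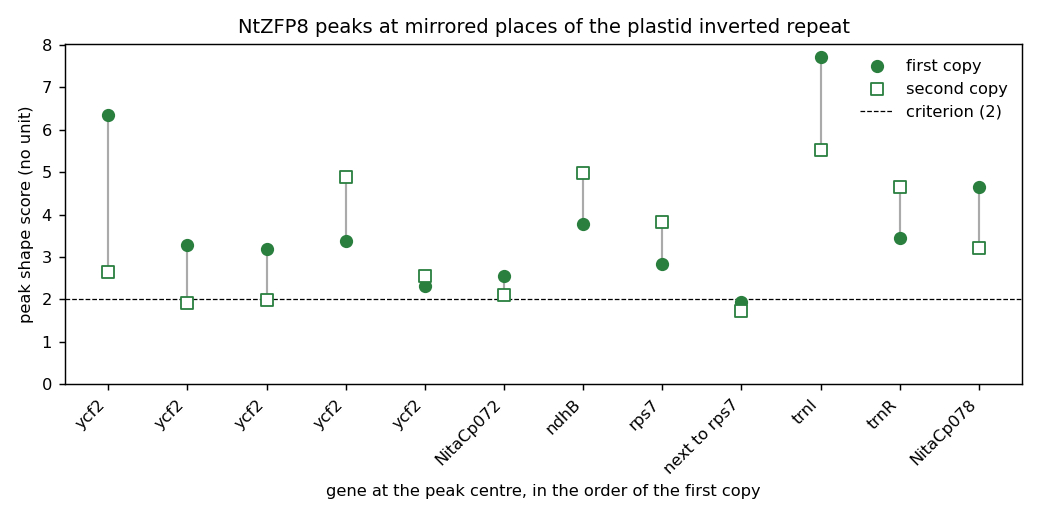
Peak shape score (vertical axis, no unit) of the 12 mirrored pairs of NtZFP8 peaks within the gene-defined copies of the plastid inverted repeat. The first copy is shown as filled circles and the second as open squares, named by the gene at the first copy's centre. The dashed line marks the criterion of 2. The first copy is higher in 7 pairs and the second in 5, and the first ycf2 pair differs most (6.35 and 2.65).

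Repeats of the mitochondrial sequence also held paired peaks. For these repeats too, the sources do not say how reads matching more than 1 copy were placed. Whether the peaks of a pair stand for separate binding at each copy was not tested. A total of 8 gene pairs, among them rrn26, sdh3 and orf173, stood again 350750 bp further on in the same order. In the stretches these genes span (58167 to 78188 and 408917 to 428938) NtZFP8 had 6 peaks each, and 4 of them were paired within 100 bp. Scores in the first and second stretch were 2.08 and 2.35 (60671 to 60937 and 411382 to 411613), 3.23 and 3.18 (61321 to 61570 and 412088 to 412317), 1.98 and 2.25 (65551 to 65784 and 416290 to 416545), and 2.69 and 2.21 (orf173). At the third of these pairs the centres were exactly 350750 bp apart. Another 3 pairs lay just outside the stretches, and the differences in score over all 7 ran from 0.05 to 0.60 in size. The single peaks in the rrn26 copies were not at the same place of the gene.

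Another repeat, of 3 gene pairs with sdh3 and nad3, began within the first of these stretches and stood again 201500 bp further on. Here a group of 2 neighbouring peaks appeared at 3 places. The first peak scored 2.69 (77814 to 78094), 3.54 (279321 to 279600) and 2.21 (428586 to 428841), and its neighbour scored 3.16 (78372 to 78592), 2.96 (279865 to 280096) and 2.82 (429136 to 429336). Centres were within 5 bp of the place the shift gives, and the first and second places differed by 0.85 and 0.20. The places were not alike throughout. A further peak followed at the second place (280404 to 280630, 2.51) and at the third (429625 to 429889, 2.38). After the first place the next centre was at 92077. AmMIXTA had no peak at any of these mitochondrial repeat places.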

How the data were processed

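Values were taken from 2 deposited peak lists, 1 per protein (AmMIXTA, NtZFP8), each called by the authors against 3 GFP samples. Per the series' design text, reads were mapped to the tobacco genome of Sierro and colleagues, and a hit needed a p-value under 0.05 besides a score above 2. Aligner, peak caller and pooling of replicates: not given in the sources used here. The deposited score has no unit, and the deposited p-value, centre and length stand beside it. NtZFP8 values are rounded and were written with decimal commas.

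Members were the rows on organelle sequences. No member ran past a sequence end, and the authors' gene tables name none of them. The members, gene classes and comparisons were chosen with earlier results of these data known. Genes came from RefSeq's table for assembly ASM71507v2 (144 plastid, 183 mitochondrial genes). Its coordinates were checked against a deposited list: all 202 gene distances there, a value in bp, came out equal with 0 bp allowed. Genes spliced from separate transcripts, such as rps12 and nad1, stand there with 1 stretch only. A repeat needed at least 3 gene pairs of equal length at 1 shift or mirror sum, and a paired peak lay within 100 bp. Peaks named were the highest and lowest, widest and narrowest, closest and most distant per sequence and protein, and those at shared places. Others, such as gene classes and repeats, were chosen after their values were seen. Sequence motifs were not analysed here. Python 3.11.15, pandas 2.3.3, numpy 2.4.6, SciPy 1.17.1 and matplotlib 3.10.9 were used, and the counting steps were tested on simulated data.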

Additional observations from a re-analysis of the deposited data

Results flagged for a closer look

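A further list stands, identical and with no protein named, in the deposited workbooks of both proteins. It entered no comparison above. Of its 618 peaks, 101 (16.3%, 95% Wilson interval 13.6 to 19.5) lie on the organelle sequences, 45 on the plastid and 56 on the mitochondrion. The plastid peaks had a median score of 5.80 and reached 8.99 (24906 to 25131, rpoB), 8.57 (37542 to 37783, psbZ) and 8.31 (8818 to 9045, between trnS and trnG), and 44 of 45 were above 2. The mitochondrial peaks had a median of 2.19 and reached 3.41 (399656 to 399841), and 35 of 56 (62.5%) were above 2. Among the 517 nuclear peaks of the list, 368 (71.2%) were above 2. Which protein and which control the list belongs to was not tested.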

How the results depend on the processing

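No paired analysis was possible because the lists carry no value per replicate and the results come from no test. For the same reason no replicate could be left out. Of 35 alternatives, 6 could not change a value, since no peak ran past a sequence end and every deposited length equalled its region. Of the other 29, 18 left the value within its 95% interval or the count within 1.5 times, and 11 moved it. With a score above 3 the counts were 3 (AmMIXTA, mitochondrion), 77 (NtZFP8, plastid) and 27 (NtZFP8, mitochondrion), which are 37.5%, 57.5% and 25% of their listed peaks. Over the whole lists, 10240 of 29197 AmMIXTA peaks and 7932 of 20957 NtZFP8 peaks stood above 3. Among nuclear peaks these shares were 35.1% and 37.8%. The plastid share of the NtZFP8 list was 0.769% above 2 and 0.971% above 3, and the mitochondrial share 0.340% above 3. The median mitochondrial NtZFP8 score was 2.68 among peaks above 2. Plastid spacing measured from end to start had a median of 611 bp. The first of these moves follow from the higher threshold itself. For mirrored pairs, a tolerance of 50 or 200 bp, chosen after seeing the data, gave 10 and 12. The planned minimum overlap of 50% was not run: places with peaks of both proteins are given as values only, without a test, since both lists share the GFP samples. Depth is unknown and limits what an absent peak can mean.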
